A study of Oryza longistaminata with 12 samples.

Results

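The 3 genes described here encode the first enzymes of aspartate-family amino acid synthesis in *Oryza longistaminata*, a wild rice whose ramets stay connected by a rhizome. They are an aspartate kinase, *OlAK* (OL03T003830), an aspartate semialdehyde dehydrogenase, *OlASADH* (OL03T003219), and an aspartate kinase-homoserine dehydrogenase, *OlAK-HSDH1* (OL08T000963). They are 3 of 29335 gene models in the count table, and all 3 were among the 25005 genes that passed the filter on low counts. They were selected on a readout, since the study named them from genes with more transcript in +N split than in +N roots, so their values in that contrast are given as a description without a test.

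Roots of ramet pairs of the accession IRGC10404 were sampled 24 h after the treatments began, in 4 groups with 3 libraries each. A +N split root received 2.5 mM NH4Cl while its partner across the rhizome received 0 mM, and a −N split root received 0 mM while its partner received 2.5 mM. Both roots of a −N pair received 0 mM and both roots of a +N pair received 2.5 mM. All plants were of this single accession and had been grown beforehand with ammonium as the only nitrogen source, and the methods describe the replicates as ramet pairs prepared independently. The labels of −N replicate 1 conflict, because the title and source name give −N while the treatment text describes a split pair. The title was followed, and comparisons of the 3 genes that involve the −N group are also given without that library.

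Between 39071838 and 56252511 reads were counted per library. Expression is given as CPM, the share of a gene in the counted reads on a parts-per-million scale, with library sizes corrected by edgeR's TMM method (trimmed mean of M values). The root marker on hand, root cap protein 2, was at 0.973 to 1.88 CPM in +N split, 0.221 to 0.554 CPM in −N split, 0.702 to 2.91 CPM in −N and 1.34 to 2.02 CPM in +N libraries. The summed CPM of 11 photosynthesis genes, as markers of leaf tissue, was 1028 to 2537 in +N split, 448 to 1403 in −N split, 1057 to 1633 in −N and 1677 to 2186 in +N libraries, and none of the 11 genes was at 0 counts in any library. These markers came from gene descriptions that cover only genes the study called in a comparison with +N. Their differences from +N are therefore not independent evidence. The root marker is 1 gene at low levels in every group. It was lower in every −N split library than in any other library, and the leaf sum was lower in −N split than in +N but overlapped with the other groups. Their part in the results was not tested. In bulk RNA from whole roots, fewer cells of a type and less RNA per cell cannot be told apart.

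In plants, aspartate kinase phosphorylates aspartate in the plastid, and aspartate semialdehyde dehydrogenase reduces the product to aspartate semialdehyde. At this branch point the carbon skeleton goes either toward lysine or, through homoserine dehydrogenase, to homoserine and on to threonine, methionine and isoleucine. Plant genomes encode both aspartate kinases of a single function, which are known for inhibition by lysine, and bifunctional aspartate kinase-homoserine dehydrogenases, which are known for inhibition by threonine.

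*OlAK*, a gene of the entry step, had 738, 815 and 934 CPM in the 3 +N split libraries. It had 49.0, 62.0 and 66.4 CPM in −N split roots, 141, 94.6 and 128 CPM in −N, and 224, 305 and 208 CPM in +N libraries. No groups overlapped, and the order of the levels was +N split, +N, −N and −N split. The group means were 829 ± 98.5 CPM in +N split, 59.1 ± 9.04 CPM in −N split, 121 ± 23.8 CPM in −N and 245 ± 51.9 CPM in +N (SD, n = 3 each).

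*OlASADH*, a gene of the second step, had 322, 303 and 369 CPM in +N split libraries. It had 60.2, 64.9 and 66.3 CPM in −N split roots, 92.6, 83.6 and 85.1 CPM in −N, and 162, 193 and 165 CPM in +N libraries. The order of the groups was that of *OlAK*, and again no library of a group reached into its neighbour in that order. The means were 331 ± 34.1 CPM in +N split, 63.8 ± 3.19 CPM in −N split, 87.1 ± 4.78 CPM in −N and 173 ± 17.4 CPM in +N (SD, n = 3 each).

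*OlAK-HSDH1*, whose product carries both the kinase and the homoserine dehydrogenase activity, had 221, 224 and 276 CPM in +N split libraries. It had 77.9, 72.4 and 95.3 CPM in −N split roots, 88.0, 95.1 and 98.3 CPM in −N, and 131, 154 and 136 CPM in +N libraries. The +N split libraries were above all others and the +N libraries next, but −N split and −N overlapped and their order is not given by these libraries. The means were 240 ± 31.1 CPM in +N split, 81.9 ± 11.9 CPM in −N split, 93.8 ± 5.29 CPM in −N and 140 ± 12.2 CPM in +N (SD, n = 3 each).

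**Figure D1:**
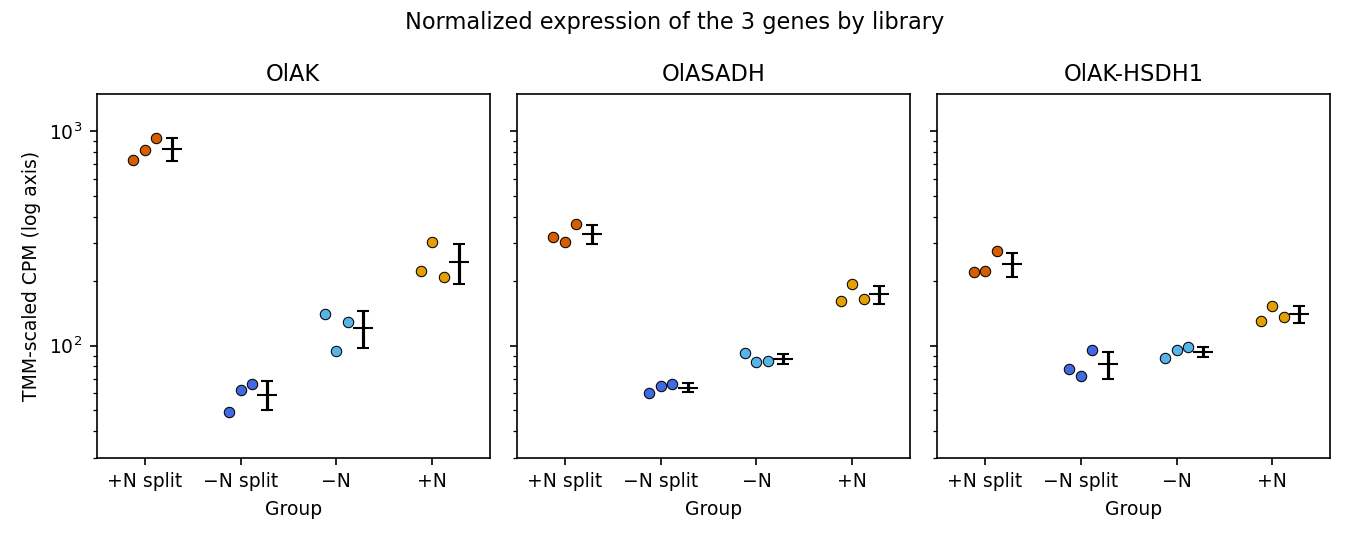
TMM-scaled CPM (log axis) of OlAK, OlASADH and OlAK-HSDH1 in each library of the +N split, −N split, −N and +N groups; each point is a library, and the dash with bars is the group mean ± SD (n = 3). OlAK spans the widest range, with 738 to 934 CPM in +N split libraries and 49.0 to 66.4 CPM in −N split libraries, and only OlAK-HSDH1 has −N split and −N libraries that overlap.

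The contrast of +N split with +N, on which the genes had been selected, is described first. The log2 fold change was 1.76 ± 0.18 for *OlAK*, 0.94 ± 0.10 for *OlASADH* and 0.78 ± 0.12 for *OlAK-HSDH1* (± SE from the edgeR fit), which are 3.38-fold, 1.91-fold and 1.71-fold higher levels in +N split. In each of the 3 genes every +N split library was above every +N library, which held for 8.71% of all genes tested, and the choice of the genes fixes this count. Within this choice the sizes differed, and 99.8%, 98.3% and 97.4% of all genes tested had a lower fold change than *OlAK*, *OlASADH* and *OlAK-HSDH1*, in that order.

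The supplied roots of split pairs were also set against the deprived roots of split pairs, as group means, since the labels do not tie libraries to single pairs. The log2 fold change of +N split over −N split was 3.81 ± 0.20 for *OlAK*, a 14.0-fold difference between the group means. It was 2.38 ± 0.10 for *OlASADH*, or 5.20-fold, and 1.55 ± 0.12 for *OlAK-HSDH1*, or 2.93-fold. All 3 genes had no overlap in this direction, as had 22.0% of all genes tested. Against −N, where neither root of the pair was supplied, the log2 fold change of +N split was 2.77 ± 0.19, 1.93 ± 0.10 and 1.36 ± 0.12 for *OlAK*, *OlASADH* and *OlAK-HSDH1* (2.89, 1.97 and 1.31 without −N replicate 1). These comparisons use the +N split libraries on which the genes were selected, which favours high values there, so they carry no test.

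Deprivation of both roots was compared with supply of both roots with the quasi-likelihood test of edgeR, and p-values were adjusted over all genes tested by the Benjamini-Hochberg method. All 3 genes fell in −N. *OlAK* was 2.03-fold lower in −N than in +N (log2 fold change −1.02, SE 0.18, edgeR adjusted p = 0.00199). *OlASADH* was 1.99-fold lower in −N (log2 fold change −0.99, SE 0.10, edgeR adjusted p = 3.97e-05), and *OlAK-HSDH1* was 1.49-fold lower in −N (log2 fold change −0.58, SE 0.12, edgeR adjusted p = 0.00497). Over all genes tested, 10.3% were called lower and 8.84% higher in −N, and 18.3% had every −N library below every +N library, as these 3 genes had. Without −N replicate 1 the log2 fold changes were −1.14, −1.04 and −0.54 for *OlAK*, *OlASADH* and *OlAK-HSDH1*, and the edgeR adjusted p values were 0.00393, 0.000247 and 0.0256. The +N libraries are shared with the contrast on which the genes were selected, and that choice favours low values in +N and thus works against a fall.

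The deprived root of a split pair was compared with +N in the same way. *OlAK* fell in −N split by 2.05 on the log2 scale (SE 0.18, edgeR adjusted p = 1.69e-05), a level 4.15-fold lower than in +N. *OlASADH* fell by 1.44 (SE 0.10, edgeR adjusted p = 3.18e-06), or 2.72-fold, and *OlAK-HSDH1* fell by 0.78 (SE 0.12, edgeR adjusted p = 0.00075), or 1.71-fold. Among all genes tested 12.2% were called lower and 11.0% higher in −N split, and 19.4% lay below +N in every library, as did all 3 genes. The same limit on the shared +N libraries applies.

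The comparison of −N split with −N asks whether a supplied partner changes the level in a root that itself receives no ammonium, and it uses no library of the contrast on which the genes were selected. *OlAK* and *OlASADH* fell further in −N split than in −N, and *OlAK-HSDH1* did not pass the test. *OlAK* was 2.05-fold lower in −N split (log2 fold change −1.04, 95% interval −1.42 to −0.65, edgeR adjusted p = 0.0067), and its highest −N split library, at 66.4 CPM, was below its lowest −N library, at 94.6 CPM. *OlASADH* was 1.37-fold lower in −N split (log2 fold change −0.45, 95% interval −0.66 to −0.24, edgeR adjusted p = 0.0206), again without overlap. *OlAK-HSDH1* had a log2 fold change of −0.20 with a 95% interval of −0.45 to 0.06 and an edgeR adjusted p of 0.427 (−0.24 and 0.473 without −N replicate 1).

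So 2 of the 3 genes were called lower, against 2.74% of all genes tested called lower and 1.27% called higher in −N split, and 11.6% of all genes had every −N split library below every −N library. Of all genes tested 2.78% had a lower fold change in this comparison than *OlAK*, 9.99% a lower one than *OlASADH* and 22.6% a lower one than *OlAK-HSDH1*. The call of *OlAK* held in each of 19 alternatives, with log2 fold changes of −1.19 to −0.91 and adjusted p of 2.36e-06 to 0.0342, the weakest being that without −N replicate 1. The call of *OlASADH* was lost without −N split replicate 1 (edgeR adjusted p = 0.068), −N split replicate 2 (0.0674), −N replicate 1 (0.0922) or −N replicate 3 (0.0546), while its log2 fold change stayed between −0.48 and −0.40. In this comparison the −N split libraries also had less root cap protein 2, at 0.221 to 0.554 CPM, than the −N libraries, at 0.702 to 2.91 CPM. These are low levels of 1 gene, and the part of this difference in the result was not tested.

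**Figure D2:**
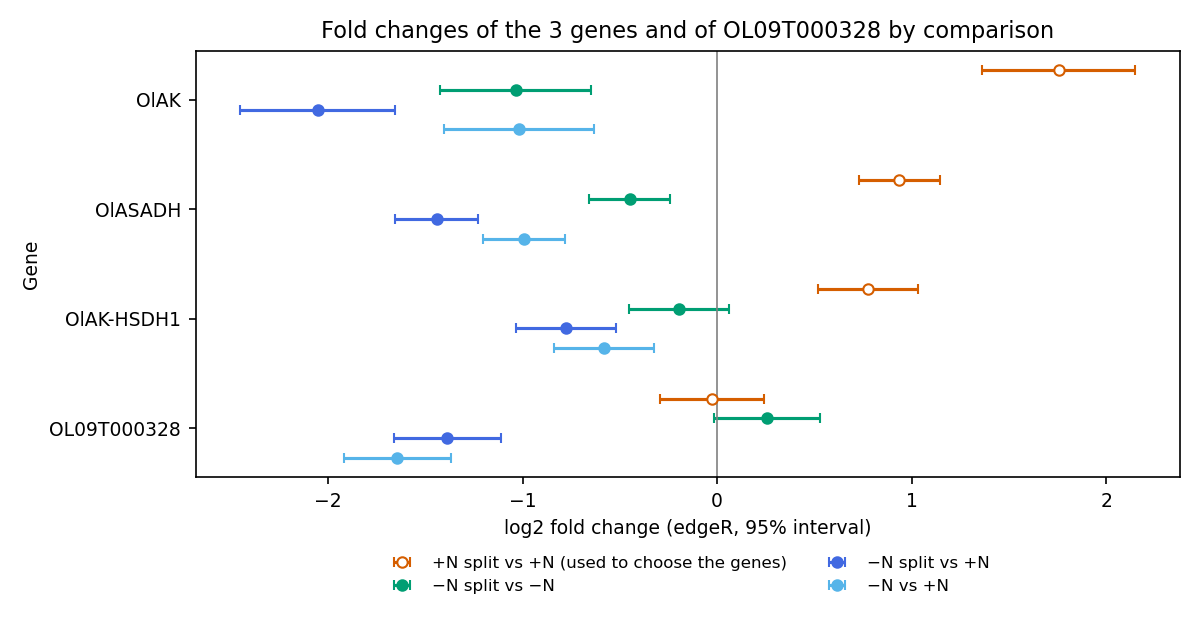
Log2 fold changes with 95% intervals from the edgeR fit (x axis) of OlAK, OlASADH, OlAK-HSDH1 and OL09T000328 (y axis) for +N split vs +N, −N split vs −N, −N split vs +N and −N vs +N; open points mark the contrast on which the first 3 genes were selected. OlAK and OlASADH lie on opposite sides of 0 in +N split vs +N, at 1.76 and 0.94, and in −N split vs −N, at −1.04 and −0.45, and OL09T000328 lies near or below 0 except in −N split vs −N, at 0.25.

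The effect of splitting the supply thus had opposite signs in supplied and deprived roots for *OlAK* and *OlASADH*. The difference of the split effects, +N split over +N minus −N split over −N, was 2.79 ± 0.25 on the log2 scale for *OlAK*, 1.38 ± 0.14 for *OlASADH* and 0.97 ± 0.17 for *OlAK-HSDH1* (± SE). Without −N replicate 1 it was 2.67, 1.34 and 1.02 for these genes. It contains the contrast on which the genes were selected and was not tested.

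The spread between replicate libraries was of the usual size for these data. The biological coefficient of variation from edgeR, the relative spread between replicates beyond counting error, was 15.8% for *OlAK*, 9.71% for *OlASADH* and 11.4% for *OlAK-HSDH1*, against a median of 14.3% over all genes. The lowest number of reads in a library was 2217 for *OlAK*, 2691 for *OlASADH* and 3005 for *OlAK-HSDH1*, so that counting error was small beside the spread between libraries.

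The sizes of the changes were compared between genes by the log2 ratio of the counts of a pair of genes within each library, which does not depend on the scaling of the library. The length of a gene cancels when such ratios are compared between groups. The *OlAK* to *OlASADH* ratio averaged −0.12 ± 0.16 in −N split, against 0.46 ± 0.24 in −N and 0.49 ± 0.16 in +N (SD, n = 3 each). It was thus lower in −N split than in −N by 0.58 and than in +N by 0.61, each without overlap (two-sided exact permutation p = 0.1 for each), and in −N it overlapped with +N (difference −0.03, exact permutation p = 0.8). The *OlAK* to *OlAK-HSDH1* ratio was −0.47 ± 0.23 in −N split, against 0.35 ± 0.34 in −N and 0.79 ± 0.19 in +N, and its −N split libraries were below all −N and +N libraries (exact permutation p = 0.1 for each). The *OlASADH* to *OlAK-HSDH1* ratio was −0.35 ± 0.18 in −N split, −0.11 ± 0.16 in −N and 0.31 ± 0.02 in +N, and it was lower than in +N in every library of both deprived groups (exact permutation p = 0.1 for each), while −N split and −N overlapped (exact permutation p = 0.3). With 3 libraries against 3, an exact permutation test cannot go below p = 0.1, and over the 12 ratio tests the lowest adjusted value was 0.133, so none passed. The ratio differences against +N also use libraries of the contrast on which all 3 genes were selected, so they are not free of that choice. Only −N split against −N uses no library of that contrast. Without −N replicate 1 the differences in −N split against −N were −0.50 for *OlAK* to *OlASADH*, −0.66 for *OlAK* to *OlAK-HSDH1* and −0.16 for *OlASADH* to *OlAK-HSDH1*, and those in −N against +N were −0.10, −0.60 and −0.50 in the same order.

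**Figure D3:**
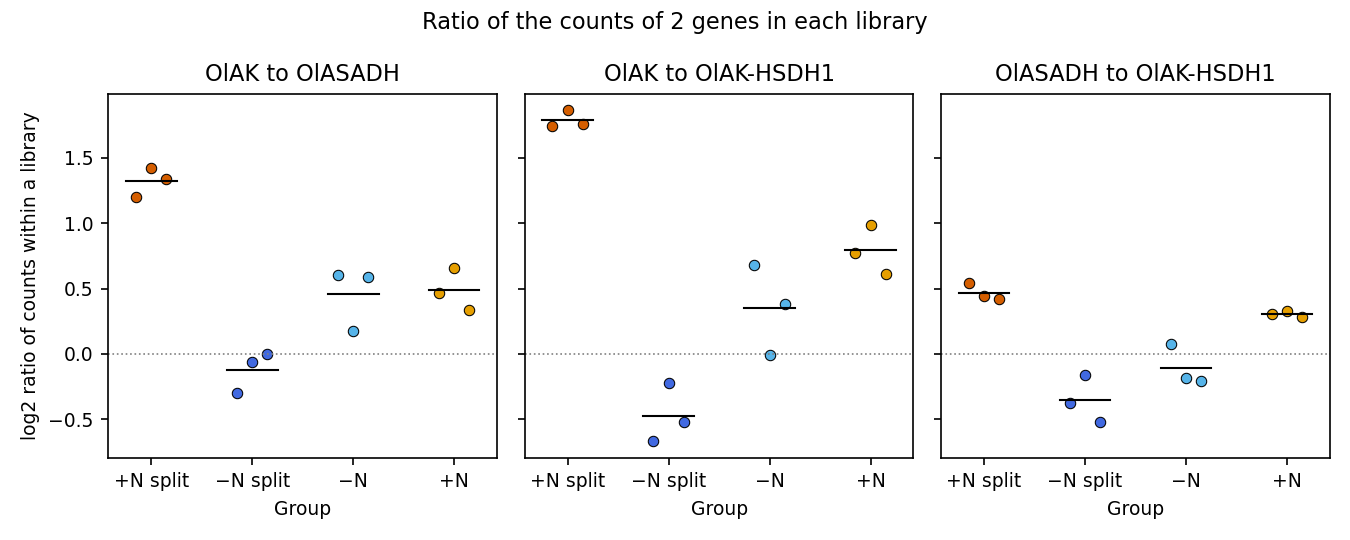
Log2 ratio of the counts of 2 genes within each library (y axis) in +N split, −N split, −N and +N roots, for OlAK to OlASADH, OlAK to OlAK-HSDH1 and OlASADH to OlAK-HSDH1; points are libraries and the bar is the group mean (n = 3). The OlAK to OlAK-HSDH1 ratio averages 1.79 in +N split, −0.47 in −N split, 0.35 in −N and 0.79 in +N, and the +N split and +N values rest on libraries used to choose the genes.

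Another gene described as an aspartate kinase-homoserine dehydrogenase, OL09T000328, had a different pattern. Its difference from *OlAK-HSDH1* in +N split against +N is favoured by the choice of *OlAK-HSDH1* on that contrast. It had 104, 90.4 and 106 CPM in +N split roots, 39.8, 32.7 and 44.4 CPM in −N split roots, 32.2, 35.2 and 30.6 CPM in −N, and 115, 88.4 and 103 CPM in +N libraries. The +N split and +N libraries overlapped (log2 fold change −0.03, SE 0.12), as did −N split and −N (log2 fold change 0.25, 95% interval −0.02 to 0.53, edgeR adjusted p = 0.32), so that the libraries formed a supplied and a deprived level. The gene was 3.12-fold lower in −N than in +N (log2 fold change −1.64, SE 0.13, edgeR adjusted p = 8.74e-06) and 2.62-fold lower in −N split than in +N (log2 fold change −1.39, SE 0.13, edgeR adjusted p = 1.97e-05). OL09T000328 was itself found through descriptions that cover only genes the study called in a comparison with +N. Its differences from +N are therefore not independent evidence.

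The log2 ratio of *OlAK-HSDH1* to OL09T000328 within a library was 1.26 ± 0.15 in +N split, 1.07 ± 0.09 in −N split, 1.52 ± 0.14 in −N and 0.46 ± 0.31 in +N (SD, n = 3 each). It was higher in every −N and every −N split library than in every +N library, by 1.06 and 0.61, and lower in every −N split than in every −N library, by 0.45 (exact permutation p = 0.1 for each, adjusted 0.133). The choice of *OlAK-HSDH1* favours low values of this gene in +N. That choice lowers the ratio in +N and thus favours the differences against +N, while −N split against −N uses no +N library. Without −N replicate 1 the difference was 1.10 in −N against +N and −0.49 in −N split against −N. How reads with matches in both genes were counted is not given in the sources used here, and such reads could have been split or lost, so the levels of this pair are uncertain to that extent.

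**Figure D4:**
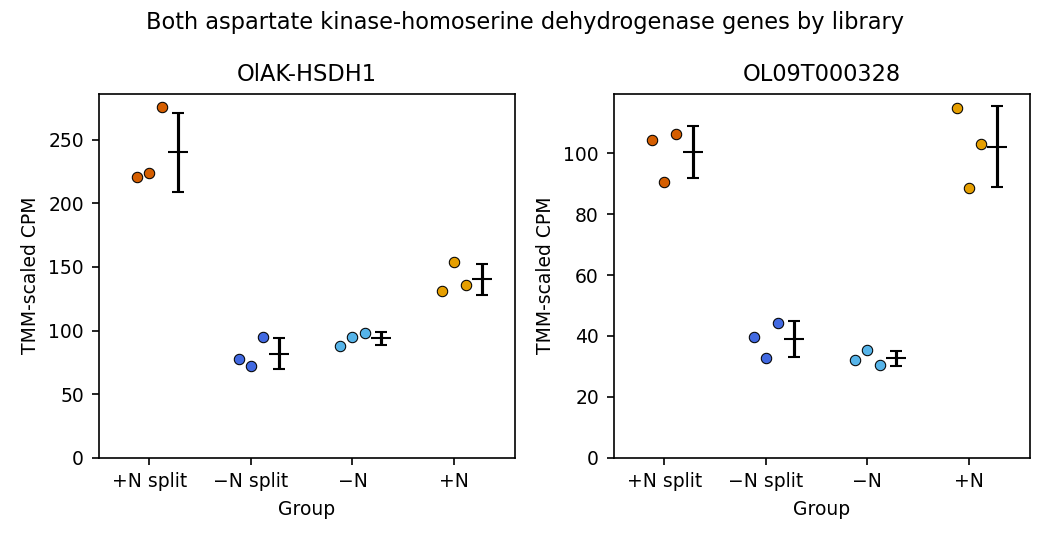
TMM-scaled CPM (linear axes from 0, scaled for each gene) of OlAK-HSDH1 and OL09T000328 in each library of the +N split, −N split, −N and +N groups, with the group mean ± SD (n = 3). OlAK-HSDH1 has 221 to 276 CPM in +N split libraries and 131 to 154 CPM in +N, whereas OL09T000328 has 90.4 to 106 CPM in +N split libraries and 88.4 to 115 CPM in +N. OlAK-HSDH1 was chosen on +N split against +N, which favours this difference between the genes.

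Further genes of aspartate formation, of the aspartate family and of asparagine metabolism were followed as a list of 16, OL09T000328 among them, read from the study's gene descriptions. The tables that hold these descriptions list only genes the study called in a comparison with +N. The direction of the list against +N is therefore not independent evidence. The −N and −N split libraries took part in those calls, so counts in −N split against −N are not free of that choice either. All 16 genes passed the filter. In −N 11 genes were called lower and 2 higher than in +N, beside 10.3% and 8.84% of all genes tested, with a median log2 fold change of −0.48. In −N split 13 were called lower and 2 higher than in +N, beside 12.2% and 11.0% of all genes tested, with a median of −0.69. In −N split against −N, 3 genes were called lower, 1 was called higher and 12 did not pass the test, beside 2.74% of all genes tested called lower and 1.27% called higher, with a median of −0.06. Without −N replicate 1 the list had 10 lower and 1 higher in −N against +N, 13 and 2 in −N split against +N, and 2 and 0 in −N split against −N. The median over all genes tested was between −0.01 and 0.02 in these comparisons. In +N split 13 of the 16 had a log2 fold change above 0 against +N, with a median of 0.26, against a median of −0.02 over all genes tested.

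The 3 aspartate aminotransferase genes, whose products make the aspartate that aspartate kinase uses, were all called lower in −N than in +N. *OlAspAT* (OL06T001607) had 223, 206 and 235 CPM in +N split roots, 19.9, 18.9 and 25.5 CPM in −N split roots, 56.2, 42.2 and 47.9 CPM in −N, and 146, 136 and 126 CPM in +N libraries. No groups overlapped, and the order was that of *OlAK*. *OlAspAT* was also among the genes the study named for higher levels in +N split than in +N. Its log2 fold change was −1.48 in −N against +N (SE 0.13, edgeR adjusted p = 2.11e-05) and −1.19 in −N split against −N (SE 0.13, edgeR adjusted p = 0.000362). OL01T003115 averaged 310 ± 42.2 CPM in −N split libraries and 443 ± 19.9 CPM in −N libraries (SD, n = 3 each; log2 fold change −0.52, SE 0.10, edgeR adjusted p = 0.0141), a call lost without −N split replicate 2 (edgeR adjusted p = 0.0501) or −N replicate 1 (0.0653). OL02T003394 did not pass, with means of 73.5 ± 1.65 CPM in −N split libraries and 88.7 ± 7.23 CPM in −N libraries (log2 fold change −0.27, SE 0.08, edgeR adjusted p = 0.0734). Without −N replicate 2 (edgeR adjusted p = 0.0366) or with the DESeq2 Wald test (adjusted p = 0.0213) it passed.

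Downstream of threonine, both threonine dehydratase genes, for the enzyme that leads to isoleucine, were called lower in −N than in +N, OL03T002880 with a log2 fold change of −0.50 (edgeR adjusted p = 0.0117) and OL03T002895 with −0.47 (edgeR adjusted p = 0.0233). The call of OL03T002880 was lost without +N replicate 2 or −N replicate 2, and that of OL03T002895 without +N replicate 1, +N replicate 2, −N replicate 1 or −N replicate 2. Neither passed in −N split against −N (log2 fold changes −0.09 and −0.12). Branched-chain aminotransferases carry out the last step of isoleucine, leucine and valine synthesis and the first of their breakdown. Of the 3 such genes, OL04T001978 fell in −N split against −N, with 21.4, 25.9 and 25.5 CPM in −N split and 42.1, 35.3 and 43.9 CPM in −N libraries (log2 fold change −0.74, SE 0.11, edgeR adjusted p = 0.00343). This gene did not pass in −N against +N (log2 fold change −0.27, edgeR adjusted p = 0.12). OL03T000030 passed only against +N, at −0.47 in −N (edgeR adjusted p = 0.00341) and −0.43 in −N split (edgeR adjusted p = 0.00536). OL03T000889 varied widely between replicates, with 17.9 to 60.9 CPM in −N and 31.0 to 66.5 CPM in +N, and was not called in any of these comparisons with all libraries. Without −N replicate 3 it was called lower in −N than in +N (log2 fold change −1.17, edgeR adjusted p = 0.0307).

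Among genes of methionine and sulfur amino acid metabolism, the homocysteine S-methyltransferase gene OL03T000826, for an enzyme that forms methionine, fell in −N against +N (log2 fold change −1.22, SE 0.19, edgeR adjusted p = 0.000904). In −N split it was lower than in +N by 0.69 (edgeR adjusted p = 0.019), a call lost when replicate 1 of +N, or replicate 1 or 3 of −N split, was left out. The genes for S-adenosylmethionine synthesis went in opposite directions. OL01T001198 averaged 25.4 ± 2.88 CPM in −N split, 23.0 ± 1.10 CPM in −N and 57.4 ± 5.91 CPM in +N and was called lower in both deprived groups (edgeR adjusted p = 1.27e-05 and 8.62e-06). OL05T000254 averaged 3242 ± 210 CPM in −N split, 3211 ± 299 CPM in −N and 2415 ± 188 CPM in +N and was called higher in both (edgeR adjusted p = 0.0256 and 0.0337). Its call in −N was lost without any 1 of the +N replicates, −N replicate 1 or −N replicate 3, and that in −N split without +N replicate 2 or −N split replicate 3. The Cys/Met metabolism enzyme gene OL03T001765 fell by 1.08 in −N and by 1.10 in −N split against +N (edgeR adjusted p = 2.3e-05 and 1.44e-05). The S-adenosylhomocysteine hydrolase gene OL04T002635 passed in −N split against +N (log2 fold change −0.49, edgeR adjusted p = 0.0125) and had −0.32 in −N (edgeR adjusted p = 0.0813), a value called without +N split replicate 1 (edgeR adjusted p = 0.0393) or +N split replicate 3 (0.0496). None of these 5 genes was called in −N split against −N. OL03T000826 was above −N in every −N split library without passing (log2 fold change 0.53, 95% interval 0.12 to 0.94, edgeR adjusted p = 0.153). OL04T002635 was below −N in every −N split library without passing (log2 fold change −0.17, edgeR adjusted p = 0.526), and the others overlapped.

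The genes of asparagine metabolism changed in opposite directions in −N against +N, and both had higher means in −N split than in −N. The asparagine synthetase gene OL03T001277, for the enzyme that uses aspartate to form asparagine, had 46.4, 72.0 and 46.8 CPM in −N split roots, 30.5, 38.7 and 36.1 CPM in −N and 149, 150 and 197 CPM in +N libraries. It fell by 2.24 in −N against +N (SE 0.18, edgeR adjusted p = 1.42e-05), and in −N split it was above −N in every library without passing the test (log2 fold change 0.65, 95% interval 0.26 to 1.03, edgeR adjusted p = 0.0649). Without −N split replicate 1 it did pass (edgeR adjusted p = 0.0491), as it did with the DESeq2 Wald test (adjusted p = 0.0105). The asparaginase gene OL04T002634, for the enzyme that releases aspartate and ammonium from asparagine, had 452, 660 and 536 CPM in −N split roots, 332, 368 and 282 CPM in −N and 211, 162 and 151 CPM in +N libraries. It was higher in −N than in +N (log2 fold change 0.91, SE 0.16, edgeR adjusted p = 0.00204) and higher in −N split than in −N (log2 fold change 0.75, SE 0.16, edgeR adjusted p = 0.0204). The call in −N split against −N was lost when replicate 2 or 3 of −N split, or replicate 1 or 3 of −N, was left out (edgeR adjusted p = 0.0535 to 0.0917). Its order of groups was thus the reverse of that of *OlAK* among the deprived groups and +N, while its +N split libraries, at 187, 184 and 155 CPM, overlapped with +N.

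**Figure D5:**
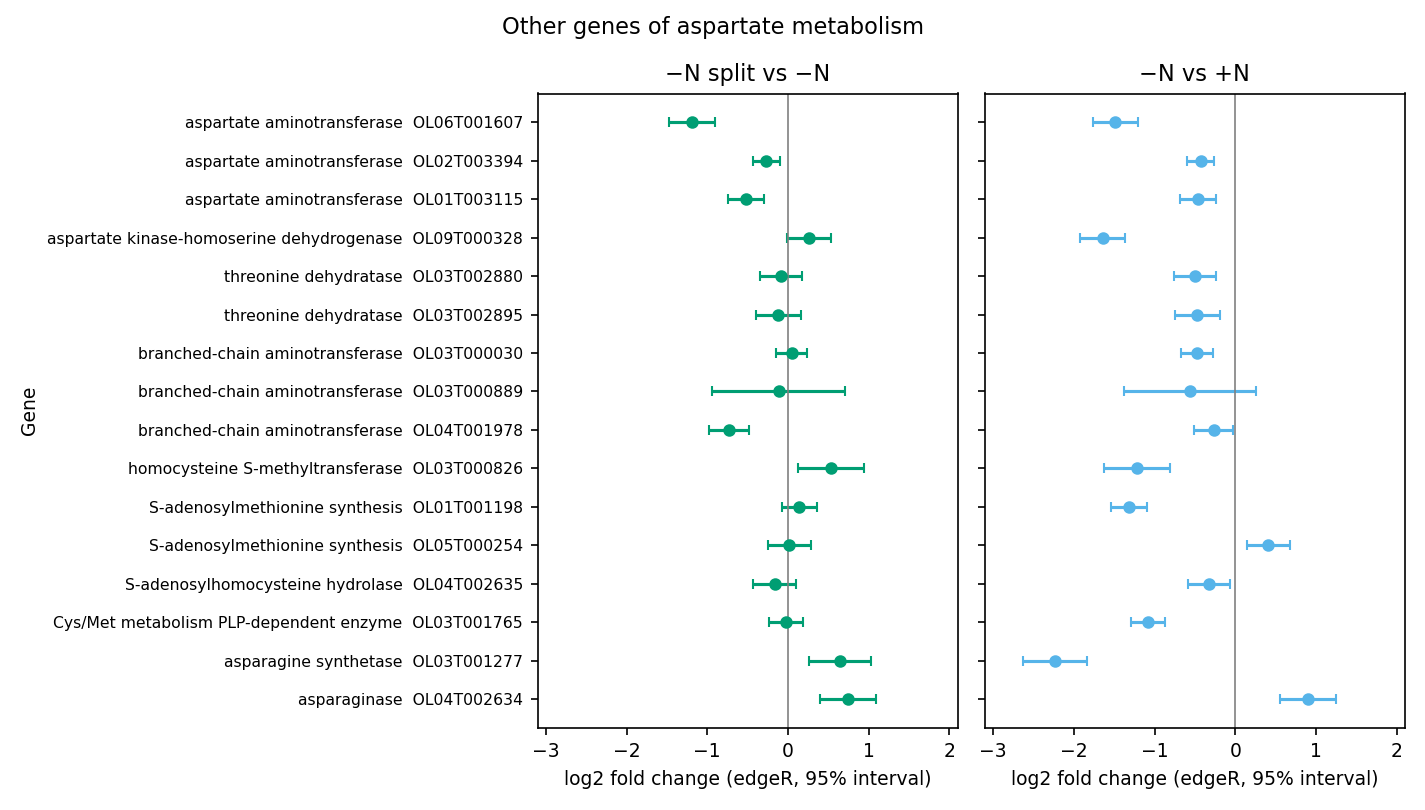
Log2 fold changes with 95% intervals from the edgeR fit (x axis) of the 16 other genes of aspartate metabolism (y axis) in −N split vs −N and in −N vs +N. In −N vs +N the values lie between −2.24 and 0.91, and in −N split vs −N, where 4 of the 16 genes were called, they lie between −1.19 and 0.75.

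The genes whose pattern over the 12 libraries was most like that of each gene were found by Pearson's r on log2 CPM. These 12 points form 4 groups, so r mostly reflects the group means, and it is given as a description. For *OlAK* the closest were a triosephosphate isomerase gene of glycolysis, OL01T000318 (r = 0.996), a second triosephosphate isomerase model on unplaced sequence, unmappedContigsT001015 (r = 0.996), and a gene for a pyrophosphate-dependent fructose 6-phosphate phosphotransferase, OL06T000911 (r = 0.991). OL01T000318 averaged 2087 ± 102 CPM in +N split, 532 ± 36.9 CPM in −N split, 777 ± 55.3 CPM in −N and 1193 ± 168 CPM in +N (SD, n = 3 each). Reads shared by the triosephosphate isomerase models could have been split between them. For *OlASADH* the closest were a glucose-6-phosphate isomerase gene, OL03T003308 (r = 0.995), a malic enzyme gene, OL01T000594 (r = 0.994), and a cysteine desulfurase gene, OL01T001192 (r = 0.993). OL01T000594 averaged 1319 ± 37.4 CPM in +N split, 194 ± 17.4 CPM in −N split, 292 ± 34.9 CPM in −N and 666 ± 155 CPM in +N. For *OlAK-HSDH1* they were OL09T000801 (r = 0.989), the phosphoglucomutase gene OL03T002890 (r = 0.988) and OL03T003101 (r = 0.987). OL03T002890 averaged 677 ± 54.1 CPM in +N split, 303 ± 10.8 CPM in −N split, 340 ± 25.1 CPM in −N and 454 ± 37.5 CPM in +N.

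Among themselves, *OlAK* and *OlASADH* had r = 0.987, *OlAK* and *OlAK-HSDH1* r = 0.972 and *OlASADH* and *OlAK-HSDH1* r = 0.980, values that the common choice of the genes raises. OL09T000328 had r = 0.787 with *OlAK*, 0.865 with *OlASADH* and 0.838 with *OlAK-HSDH1*.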

How the data were processed

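Root mRNA from ramet pairs of *O. longistaminata* had been sequenced, with 3 libraries in each of 4 groups. According to the methods and labels, the authors made TruSeq mRNA libraries, mapped the reads with HISAT2 and counted them with featureCounts. Not given in the sources used here were tool versions, the strand setting and the handling of read pairs and of reads with several matches. The authors deposited unnormalized read counts for 29335 gene models and the log2 CPM of the same counts. The deposited log2 CPM equalled edgeR's log CPM at prior count 2 without TMM factors (largest difference 4.99e-09), so the counts were analysed. The table held 0 columns of other samples. The authors' fold changes and false discovery rates in the supplementary tables were not used, and only gene descriptions were taken from them.

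All fits used edgeR 4.0.16 under R 4.3.3. The filterByExpr function (minimum count 10, minimum total 15) left 25005 genes, and libraries were scaled by TMM (factors 0.922 to 1.07). A mean per group was fitted to all 12 libraries with glmQLFit (8 residual degrees of freedom) and compared with glmQLFTest and Benjamini-Hochberg adjustment over all genes tested, with calls at an adjusted p under 0.05. Ratios within a library used log2(count + 0.5). Replicate libraries differed by more than sampling noise (chi-square per gene 22.8 to 54.7), and none was counted as a duplicate. The genes, the lists and the tests were chosen with earlier results of these data known. Named genes are the 3 pathway genes, the 16 listed genes of aspartate metabolism and, for each pathway gene, the 3 genes with the highest Pearson's r over the libraries. The alternatives were DESeq2 size factors, no TMM, no filter, a filter of 1 CPM in 3 libraries, the 6 libraries compared alone, the DESeq2 1.42.0 Wald test, a block for the replicate number, leaving out each library in turn, an adjusted p under 0.01, a pseudocount of 10 for the ratios and Spearman's rho for likeness. Steps were tested on simulated data. Gene lengths, coordinates and sequences were not used here, so levels were not compared between genes.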

Additional observations from a re-analysis of the deposited data

Results flagged for a closer look

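In *OlAK* and *OlASADH* the change in split against uniform pairs had opposite signs in supplied and deprived roots, without overlap of the groups compared. Every +N split library was above every +N library for 8.71% of all genes tested. Every −N split library was below every −N library for 11.6%, and the share with both was not counted. The listed genes OL06T001607, OL02T003394, OL01T003115, OL04T001978 and OL04T002635 had the same pattern. These genes were read from descriptions that cover only genes the study called in a comparison with +N. The study also named OL06T001607 for its higher level in +N split than in +N. In −N split against −N, OL02T003394 and OL04T002635 were not called (edgeR adjusted p = 0.0734 and 0.526). The choice of *OlAK* and *OlASADH* fixes their rise in +N split. For *OlAK* the log2 fold change was 1.76 in +N split against +N and −1.04 in −N split against −N. For *OlASADH* it was 0.94 in +N split against +N and −0.45 in −N split against −N. The difference between these changes was not tested, since the +N split against +N values chose the genes.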

How the results depend on the processing

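The direction of all 3 genes was kept in every comparison under each alternative, and the calls of *OlAK*, *OlASADH* and *OlAK-HSDH1* in −N and in −N split against +N were kept in all of them. In −N split against −N the log2 fold change of *OlASADH* was −0.48 to −0.40 with a library left out, and the call was lost in 4 of 12 such fits. With all libraries its edgeR adjusted p of 0.0206 was also above the stricter threshold of 0.01. Without TMM its log2 fold change in +N split against −N split was 2.25 (2.38 with TMM), where this setting moves the median of all genes to −0.145 (−0.115 in +N split against −N and −0.117 in the difference of the split effects). At an adjusted p under 0.01, 989 genes were called higher and 1393 lower in −N against +N, 1233 higher and 1557 lower in −N split against +N, and 76 higher and 286 lower in −N split against −N (317 and 684 at 0.05). The DESeq2 Wald test called 678 higher and 1202 lower in −N split against −N. With a library left out, 1795 to 2918 genes were called higher in −N split against +N, and 97 to 356 higher and 370 to 718 lower in −N split against −N, so that the background of the last comparison depends on single libraries. Of the 16 listed genes, 1, 1 and 0 were called higher in −N against +N, −N split against +N and −N split against −N at an adjusted p under 0.01, and 2 in −N split against −N by DESeq2. With a library left out these counts were 1 to 2, 1 to 2 and 0 to 2.

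Whether the numbers of the replicates pair the samples was not settled. Of 18 same-numbered pairs of libraries, 6 had a correlation of deviations over 0.1 (range −0.159 to 0.233). Differently numbered pairs ranged from −0.223 to 0.168, and a smaller share of them was over 0.1. The same-numbered pairs of replicate 3 were all positive (0.059 to 0.233), and those of replicates 1 and 2 were of both signs. With the replicate block the edgeR log2 fold changes in −N split against −N were −1.05 for *OlAK*, −0.45 for *OlASADH* and −0.20 for *OlAK-HSDH1* (adjusted p = 0.0157, 0.0331 and 0.299), with 328 genes called higher and 704 lower, and no call of the 3 genes changed. The ranking of the most similar genes depended on the measure, as Spearman's rho kept 0, 1 and 0 of the 3 genes named for *OlAK*, *OlASADH* and *OlAK-HSDH1*.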
